A study of Mus musculus with 36 samples.

Results

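The genes described here are 5 genes of CC chemokine ligands, Ccl3, Ccl4, Ccl6, Ccl8 and Ccl9, in mouse eosinophils. They were chosen by symbol, with earlier results of these data known. Another 5 CC ligand genes measured in the tissues are not members. All 5 were among the 9844 genes measured in eosinophils of 7 tissues. A second table held 8001 genes of small intestine cells sorted on an Nmur1 reporter, of which 4 were members, and Ccl8 was not analysed there. Total eosinophils had been flow-sorted at steady state from wildtype C57BL/6 mice aged 8 to 12 weeks, with males and females pooled. Bone marrow, lung, skin and colon gave 3 libraries each, and blood, spleen and small intestine gave 4 each. NMUR1-TdT reporter mice, in which a fluorescent protein marks cells that use Nmur1, a receptor of the neuropeptide neuromedin U, gave 5 libraries of positive and 6 of negative small intestine eosinophils, from mice of the same strain and age range, again with both sexes pooled. A single-cell sample was not analysed here. Nothing in the labels states that libraries of a group came from different animals. The p-values therefore reflect only library-to-library spread, which can be technical. Values are TPM, the abundance of a gene's transcripts on a scale with a fixed total, which corrects for transcript length and keeps no sequencing depth.

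CC chemokines are small secreted proteins that attract and activate leukocytes through receptors of the CCR family. Ccl3 and Ccl4 encode the macrophage inflammatory proteins 1 alpha and 1 beta, which are made quickly by activated leukocytes. Ccl6 and Ccl9 are rodent genes whose products act on Ccr1, and Ccl6 is a known abundant transcript of mouse eosinophils. The product of mouse Ccl8 attracts cells that carry Ccr8.

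The 5 genes lie on mouse chromosome 11 and are protein coding in GENCODE M21 (GRCm38, the mm10 build). Ccl9 (ENSMUSG00000019122.8) spans positions 83572919 to 83578636 on the minus strand. Ccl6 (ENSMUSG00000018927.3), 9246 bp away on the same strand, spans 83587882 to 83593087. Ccl3 (ENSMUSG00000000982.5) spans 83647844 to 83649355 on the minus strand. Ccl4 (ENSMUSG00000018930.3), 13229 bp from Ccl3, spans 83662584 to 83664683 on the plus strand. Ccl8 (ENSMUSG00000009185.2) lies apart from these 4, at 82115185 to 82116799 on the plus strand, in a cluster with Ccl2 and Ccl7, which lie 77732 and 67660 bp away on the same strand. No 75-base window of any member's transcripts occurred in the transcripts of another gene. The Ccl6 span is overlapped on the opposite strand by E230016K23Rik, but 0 of the 1795 exonic bases of Ccl6 are shared with its exons.

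The 250 bases before the start of 4 members are shown because these neighbouring genes had unlike levels across the tissues. They come from RefSeq (GRCm38.p6), which matched 4 of the 5 members, with no entry used for Ccl4. The windows are chr11:83649379-83649628 for Ccl3, chr11:83593088-83593337 for Ccl6 and chr11:83578637-83578886 for Ccl9, all on the minus strand, and chr11:82114935-82115184 on the plus strand for Ccl8. Each reads 5′ to 3′ and ends at the base before the gene's RefSeq start. Capitals mark matches to 6 motifs searched on both strands.
Ccl3: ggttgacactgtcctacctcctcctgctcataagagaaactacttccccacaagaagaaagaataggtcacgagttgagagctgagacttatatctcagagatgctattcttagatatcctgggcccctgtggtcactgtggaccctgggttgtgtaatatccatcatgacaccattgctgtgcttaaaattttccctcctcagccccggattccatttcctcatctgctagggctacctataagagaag
Ccl6: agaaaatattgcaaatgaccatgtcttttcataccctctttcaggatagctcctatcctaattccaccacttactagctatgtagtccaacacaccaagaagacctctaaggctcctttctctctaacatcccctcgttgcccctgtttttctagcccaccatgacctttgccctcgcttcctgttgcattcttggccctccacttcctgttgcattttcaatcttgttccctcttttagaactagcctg
Ccl9: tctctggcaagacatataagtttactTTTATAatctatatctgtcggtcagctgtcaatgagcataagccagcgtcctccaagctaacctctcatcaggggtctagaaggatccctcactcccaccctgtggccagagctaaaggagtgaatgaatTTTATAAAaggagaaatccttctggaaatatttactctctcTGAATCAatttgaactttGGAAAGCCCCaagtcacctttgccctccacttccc
Ccl8: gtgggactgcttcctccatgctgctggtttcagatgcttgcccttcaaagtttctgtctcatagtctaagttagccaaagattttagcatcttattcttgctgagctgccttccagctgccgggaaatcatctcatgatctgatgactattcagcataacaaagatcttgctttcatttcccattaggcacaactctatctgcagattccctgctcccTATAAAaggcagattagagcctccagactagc
The motif letters and the share of 32851 mouse promoter windows of the same length that held them were as follows. NF-kappaB (GGG and CC with any 5 bases between) occurred in 45.8% of windows. AP-1 (TGANTCA) occurred in 6.75% of windows. The cAMP response motif (TGANGTCA) occurred in 7.49%. STAT letters (TTCNNNGAA) were held by 7.02% of windows and C/EBP letters (TTGCNNAA) by 9.56%. The TATA letters (TATAAA) were held by 12.4%. The Ccl9 window held AP-1 letters 53 to 47 bases before the start, NF-kappaB letters on the other strand at 35 to 26 bases, and 3 TATA matches, of which the pair at 94 to 87 bases overlap on opposite strands. The Ccl8 window held TATA letters at 32 to 27 bases. None of the 6 motifs occurred in the Ccl3 or Ccl6 windows. A match describes letters and does not show that a factor binds.

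The labelled cell type was checked against its markers. Siglecf, Il5ra and Ccr3, receptors that mark eosinophils, were above 0 in every library, with group means of 119 to 296 TPM for Siglecf in the tissues. They come from a list of 12 eosinophil genes, all measured in the tissues. Against bone marrow, blood and spleen, the other 4 tissues had 2 of the 12 higher and 9 lower (limma adjusted p under 0.05). Of all genes, 22.4% were higher and 31.1% lower. Epx is listed at 0 in every colon library, and Prg2 had means of 72326.5 TPM in bone marrow and 55.1 TPM in small intestine. Bone marrow libraries also held precursor and neutrophil transcripts, with a mean of 16464 TPM of S100a8 and 7052 TPM of Elane, against means of at most 825 TPM of S100a8 in the other tissues. The whole list of 9 neutrophil and precursor genes, 8 of them measured, did not single out bone marrow by its sum, which was 66005 to 74299 TPM there, 58525 to 65490 in blood, 52038 to 67259 in spleen and 65897 to 75109 in lung, against at most 13848 in skin, colon and small intestine. Retnlg made up most of that sum in blood, spleen and lung (means of 61059, 56426 and 70436 TPM) and had a mean of 17778 TPM in bone marrow. One spleen library, replicate 4, held 3242 TPM of S100a8, and leaving it out changed no call of Ccl3, Ccl4, Ccl6 or Ccl9 in the 4 tissue contrasts below. In bulk libraries, fewer cells of a type and less RNA per cell cannot be told apart. Between 7770 and 9325 genes reached 1 TPM per tissue library. Because the median gene moved between groups, changes below are log2 changes of TPM + 1 relative to the median gene, which itself changed by −0.15 to 0.27, and by −0.56 for lung against skin. Tests are against no change before this shift.

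The 4 members other than Ccl8 differed among the 7 tissues in 3 patterns. Ccl3 and Ccl4 were low in bone marrow, blood and spleen, higher in lung, skin and colon, and highest in small intestine. Ccl6 was abundant in all tissues and lowest in small intestine and bone marrow, and Ccl9 was highest in skin. All 4 passed the limma F test over the tissues, as did 81.1% of all genes, with adjusted p of 3.35e-16 for Ccl3, 6.68e-14 for Ccl4, 1.96e-15 for Ccl6 and 3.93e-13 for Ccl9. Of the 21 tissue pairs, each compared at an adjusted p under 0.05 in limma, Ccl3 was called in 16, Ccl4 in 17, Ccl6 in 15 and Ccl9 in 17. Over all genes and pairs 34.8% were called, with a median of 7 pairs per gene and between 1.09% and 53.3% of genes per pair. Ccl8 passed the filter on low values through its skin libraries, so it had to differ and was given no test.

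**Figure D1:**
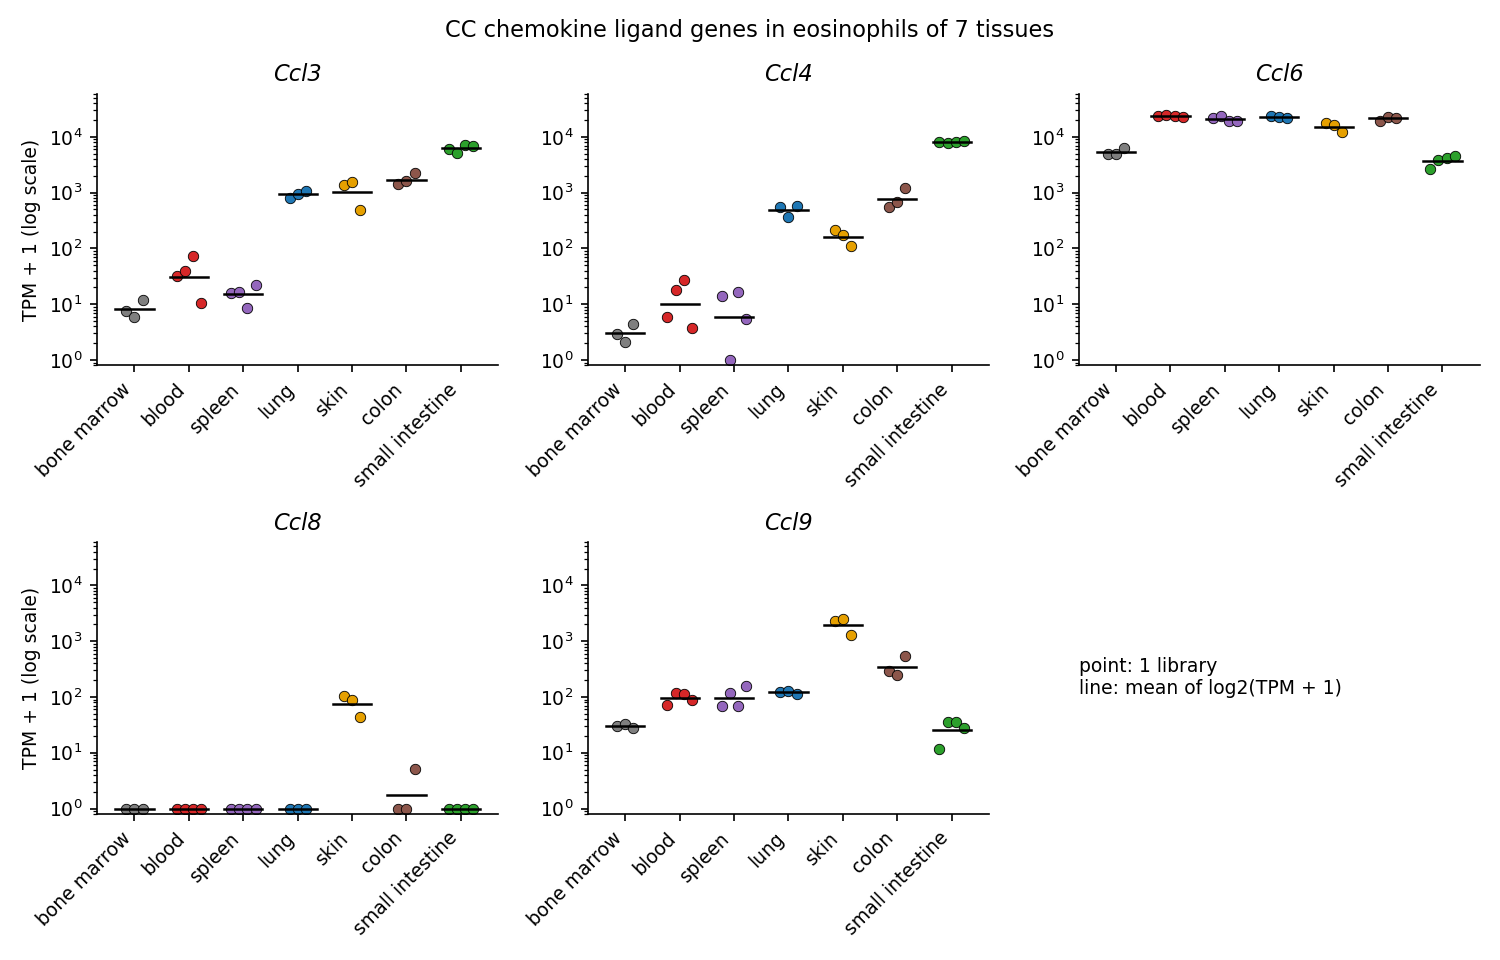
TPM + 1 on a log axis of each member in each of the 24 tissue libraries, 1 panel per gene, with the tissues on the x axis; points are libraries and lines are means of log2(TPM + 1). Ccl3 and Ccl4 reach their highest values in small intestine (Ccl4 between 7661 and 8586 TPM), Ccl6 is lowest there, and Ccl8 is above 0 in skin and in 1 colon library.

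Ccl3 was high in every small intestine library, at 6158, 5211, 7165 and 6818 TPM. Its colon libraries had 1413, 1590 and 2245 TPM, its skin libraries 1392, 1530 and 479 TPM, and its lung libraries 798, 959 and 1086 TPM. In blood it had 30.9, 38.0, 73.4 and 9.41 TPM. The small intestine libraries lay above all others, and no library of lung, skin or colon fell within the range of blood. Spleen had 14.8, 15.9, 7.45 and 21.6 TPM, and bone marrow 6.71, 4.93 and 11.1 TPM. Both overlapped their neighbour in this order. Neighbouring tissues that limma did not separate were colon and skin (adjusted p = 0.289, relative difference 0.80), skin and lung (adjusted p = 0.899, −0.46), blood and spleen (adjusted p = 0.337, 1.17), and spleen and bone marrow (adjusted p = 0.142, 0.82).

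Ccl4 had an even wider range. It stood at 8114, 7661, 8254 and 8586 TPM in small intestine, where the libraries differed by a standard deviation of 383 TPM around a mean of 8154 TPM. Colon had 543, 684 and 1228 TPM, and lung 552, 359 and 582 TPM. Colon and lung overlapped, and limma did not separate them (adjusted p = 0.483, relative difference 0.10). Skin had 213, 172 and 108 TPM, all below lung, yet the lung and skin difference of 2.17 relative to the median gene missed the threshold (adjusted p = 0.0654) when all 24 libraries shared one estimate of the spread. Fitted on the lung and skin libraries alone, it passed (adjusted p = 0.000857). Blood had 4.89, 17.1, 25.7 and 2.76 TPM, and bone marrow 1.93, 1.12 and 3.47 TPM. Spleen had 12.9, 15.8 and 4.33 TPM in 3 libraries, and in its replicate 2 the gene is listed at 0. These 3 tissues overlapped, although limma separated blood from bone marrow (adjusted p = 0.0399, relative difference 1.81).

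Ccl6 was the most abundant member in every tissue except small intestine. In blood it ranged from 22467 to 24597 TPM, in lung from 21465 to 24035 TPM, in colon from 19442 to 23046 TPM and in spleen from 19311 to 24021 TPM. It ranked 2 among all genes in each spleen library and between 2 and 4 in blood, lung and colon. These 4 tissues overlapped, and limma called none of the pairs among them. Skin was lower, at 17411, 16353 and 12182 TPM, below every spleen library (adjusted p = 0.0117, relative difference from spleen to skin 0.50). Bone marrow had 5034, 5019 and 6291 TPM. Small intestine was lowest, at 2661, 3877, 4132 and 4507 TPM, where the gene ranked 17 to 34, and it was separated from bone marrow (adjusted p = 0.00316, relative difference 0.52).

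Ccl9 was highest in skin, at 2301, 2488 and 1298 TPM. Colon followed with 294, 242 and 540 TPM, and lung had 124, 126 and 114 TPM. These 3 tissues did not overlap, and both steps in the order passed (adjusted p = 1.49e-05 for skin against colon, relative difference 2.49, and 0.00246 for colon against lung, 0.91). Spleen had 67.3, 115, 68.3 and 155 TPM, and blood 70.8, 116, 114 and 87.3 TPM. Lung was not separated from spleen (adjusted p = 0.430, relative difference 0.91) or from blood (adjusted p = 0.452, 0.77), nor spleen from blood (adjusted p = 1, −0.10). Bone marrow, with 29.7, 31.5 and 27.2 TPM, and small intestine, with 10.5, 34.3, 35.1 and 26.8 TPM, were lowest and overlapped (adjusted p = 0.560, relative difference 0.25).

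Ccl8 had 102, 88.2 and 42.1 TPM in the skin libraries. It had 4.14 TPM in colon replicate 4 and is listed at 0 in the 2 other colon libraries. It is also listed at 0 in every library of bone marrow, blood, spleen, lung and small intestine. Skin was therefore the only one of the 7 tissues with the gene above 0 in all its libraries.

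The mixture of these transcripts differed between tissues. The 5 genes together made up 2.38% ± 0.0920 (SD, n = 4) of the total TPM scale in blood, 2.44% ± 0.113 (SD, n = 3) in lung and 2.44% ± 0.237 (SD, n = 3) in colon. They made up 1.83% ± 0.168 (SD, n = 4) in small intestine and 1.87% ± 0.401 (SD, n = 3) in skin, with bone marrow lowest at 0.549% ± 0.0733 (SD, n = 3). Ccl6 alone was 99.3% ± 0.0520 (SD, n = 3) of this sum in bone marrow, 99.4% ± 0.214 (SD, n = 4) in blood, 93.5% ± 1.05 (SD, n = 3) in lung and 88.1% ± 3.10 (SD, n = 3) in colon. In small intestine it was 20.6% ± 3.39 (SD, n = 4), while Ccl3 and Ccl4 together were 79.2% ± 3.45 (SD, n = 4). These shares were chosen for display after the values had been seen and carry no test.

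**Figure D2:**
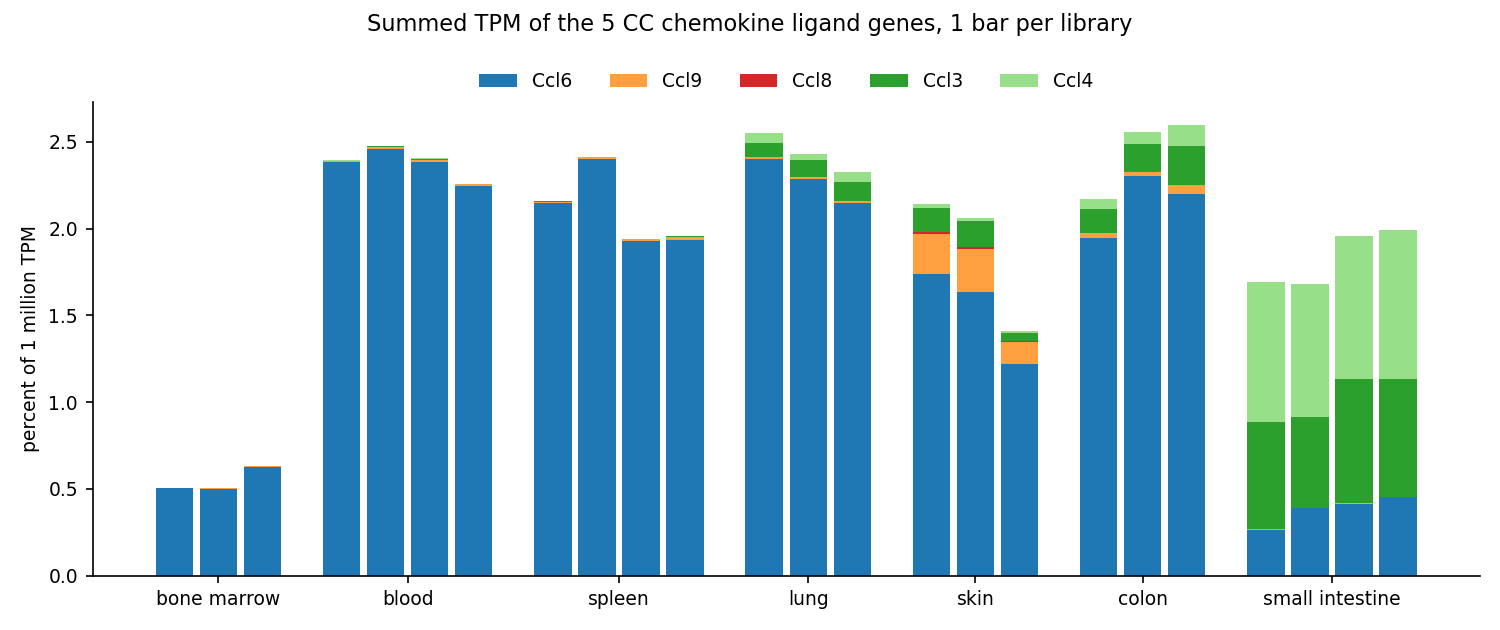
Summed TPM of the 5 genes as a percent of the full TPM scale, 1 stacked bar per tissue library in tissue order, with colours for the genes. The bars of small intestine are mostly Ccl3 and Ccl4 (79.2% of the sum on average), while those of blood are nearly all Ccl6 (99.4%).

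The ratio of Ccl4 to Ccl3, also chosen after its values were seen, separated small intestine from the other barrier tissues. It was between 1.15 and 1.47 in the 4 small intestine libraries. It was between 0.384 and 0.547 in colon, between 0.374 and 0.692 in lung and between 0.113 and 0.226 in skin. Thus Ccl4 was the more abundant of the pair in these 4 small intestine libraries, and Ccl3 in every library of colon, lung and skin. The order did not hold in all of the sorted small intestine libraries described below. For the neighbours Ccl9 and Ccl6, the ratio of Ccl9 to Ccl6 was 0.130 ± 0.0229 (SD, n = 3) in skin, 0.0167 ± 0.00717 (SD, n = 3) in colon and 0.00680 ± 0.00230 (SD, n = 4) in small intestine.

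Set against bone marrow, blood and spleen, the mean of lung, skin, colon and small intestine was higher for 3 of the 4 tested members, where 22.4% of all genes were higher, 31.1% lower and 53.4% were called in either direction. Ccl4 rose by 7.36 ± 0.35 (log2 relative to the median gene, SE; limma adjusted p = 3.47e-15) and Ccl3 by 6.99 ± 0.24 (adjusted p = 2.78e-18). For both, every library of the first 4 tissues lay above every library of the other 3, which held for 3.57% of all genes in either direction. Ccl9 rose by 1.85 ± 0.18 (adjusted p = 2.12e-08), with overlap, and by 0.84 (adjusted p = 0.00947) without the skin libraries. Ccl6 was not called (0.04 ± 0.08, adjusted p = 0.233). Tissues within the groups differed, and without the bone marrow libraries Ccl6 was lower (−0.69, adjusted p = 2.92e-08). In the same comparison all 16 measured genes of a list of transcripts known to respond to tissue dissociation, such as Atf3 and Hspa1a, were higher, by a median of 2.72. Their summed level was 612 to 676 TPM in bone marrow, 3823 to 6690 in blood, 1762 to 3662 in spleen, 5677 to 6829 in lung, 4654 to 6773 in skin, 13887 to 19119 in colon and 5532 to 9294 in small intestine. Single tissues differed from this. Hspa1a had means of 0.27 TPM in lung and 0.90 TPM in bone marrow, and Fos 152 TPM in lung and 638 TPM in blood. Atf3 had 27.1 TPM in lung and at most 1.11 TPM in bone marrow, blood and spleen. The part of this list in the difference was not tested.

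**Figure D3:**
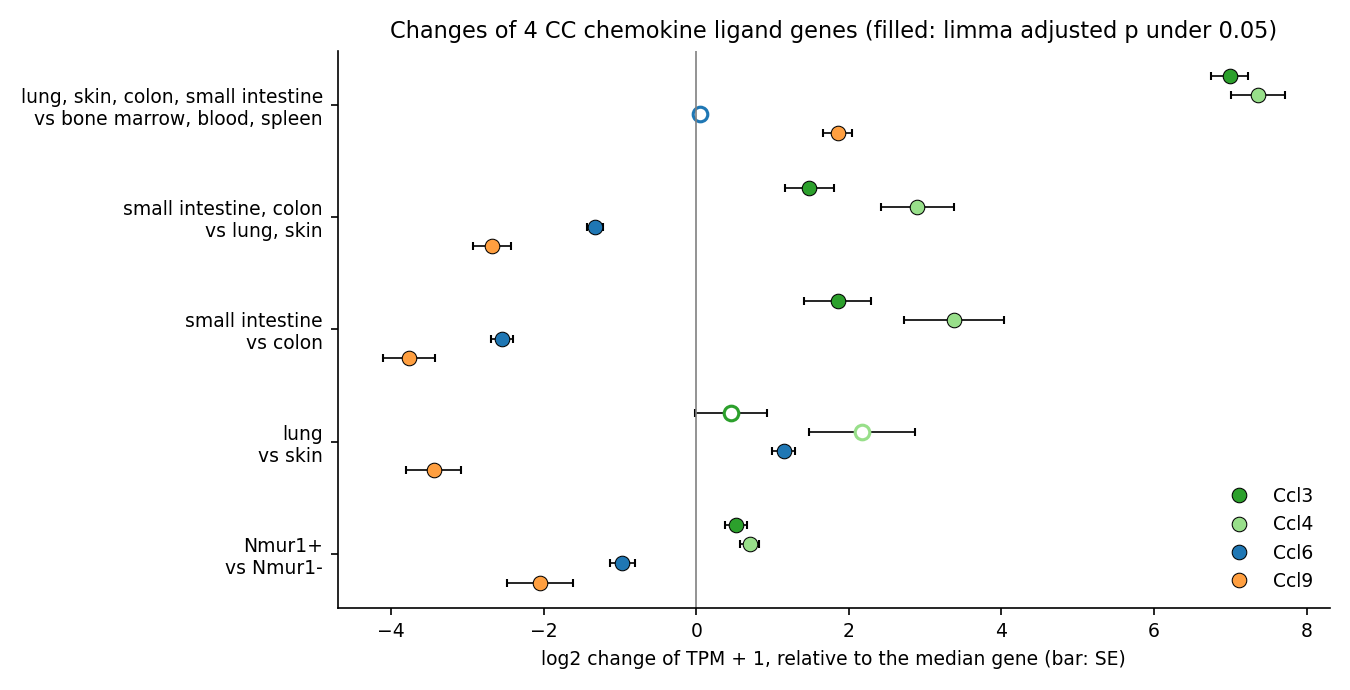
log2 change of TPM + 1 relative to the median gene for Ccl3, Ccl4, Ccl6 and Ccl9 in 5 comparisons; bars are standard errors and filled points have a limma adjusted p under 0.05. Ccl3 and Ccl4 are above 0 and Ccl6 and Ccl9 below 0 in small intestine against colon (Ccl4 at 3.38, Ccl9 at −3.77) and in the sort.

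Small intestine against colon, the pair of gut tissues, separated the members by direction. All 4 were called, where 12.7% of all genes were called (5.63% as higher and 7.10% as lower), and none overlapped, where 22.5% of all genes did not overlap. Ccl4 rose by 3.38 ± 0.65 (SE, limma adjusted p = 0.000540) and Ccl3 by 1.85 ± 0.44 (adjusted p = 0.00407). Ccl9 was lower (−3.77 ± 0.34, adjusted p = 8.54e-09), from a mean of 359 to 26.7 TPM, as was Ccl6 (−2.55 ± 0.14, adjusted p = 5.27e-12), from 21488 to 3794 TPM. In this comparison 0 of the 16 dissociation-response genes were higher and 10 were lower. Junb, one of them, was lower (−1.45, adjusted p = 0.000497). Of the 6 macrophage markers measured, 1 was higher and 1 lower. Cd68 rose, with means of 92.4 TPM in small intestine and 5.77 TPM in colon (3.82, adjusted p = 5.93e-05), and Csf1r was lower, with 38.6 and 107 TPM (−1.49, adjusted p = 8.64e-06). The part of these lists in the difference was not tested.

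Both gut tissues together were set against lung and skin, where 40.6% of all genes were called, 29.5% as higher and 11.1% as lower. All 4 members were called and all overlapped between the groups, where only 7.02% of all genes did not overlap. Ccl4 rose by 2.89 ± 0.48 (SE, limma adjusted p = 9.28e-06) and Ccl3 by 1.48 ± 0.32 (adjusted p = 0.000112). Ccl6 was lower (−1.33 ± 0.10, adjusted p = 1.16e-08), and so was Ccl9 (−2.68 ± 0.25, adjusted p = 2.57e-08). Colon taken alone differed from this. Its Ccl6 was not separated from lung (adjusted p = 0.685) and was higher than in skin (0.54, adjusted p = 0.0217). Its Ccl9 was higher than in lung (0.91, adjusted p = 0.00246) and lower than in skin (−2.49, adjusted p = 1.49e-05). Its Ccl3 was separated from neither (adjusted p = 0.151 and 0.289), and its Ccl4 only from skin (2.31, adjusted p = 0.0233). Skin decided the call of Ccl9, which without the skin libraries was −0.97 (adjusted p = 0.288). Without them the change of Ccl4 was 1.79 (adjusted p = 0.00282). Of the dissociation-response genes 10 of 16 were higher and 1 lower in the gut tissues, with a median change of 1.01. Of 7 epithelial, stromal and endothelial markers 4 were measured and all 4 were higher, with sums of 131 to 202 TPM in colon and 198 to 249 TPM in small intestine against 30.4 to 55.7 TPM in lung and 10.9 to 43.4 TPM in skin. In the gut tissues most of the sum was Pecam1 (means of 101 TPM in colon and 154 TPM in small intestine), which leukocytes also express. Epcam, an epithelial marker, was at most 14.8 TPM. Dcn had means of 12.5 TPM in colon, 30.4 in small intestine, 9.70 in skin and 0 in lung. Krt18 had means of 33.7, 30.4, 3.97 and 17.8 TPM in the same order. The part of these lists in the members' changes was not tested. This comparison shares its small intestine and colon libraries with the one before it.

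Lung against skin gave calls for 2 of the 4 members, where 42.5% of all genes were called, 8.03% as higher in lung and 34.5% as lower. Ccl9 was lower in lung (−3.44 ± 0.36 SE, limma adjusted p = 6.17e-09) and Ccl6 higher (1.15 ± 0.15, adjusted p = 0.00302). Both were without overlap, as were 46.1% of all genes. Ccl4 was without overlap too, higher in lung, but was not called (2.17 ± 0.70, adjusted p = 0.0654). Ccl3 was not called (0.46 ± 0.47, adjusted p = 0.899). Before the shift to the median gene its change was −0.10, with means of 948 TPM in lung and 1134 TPM in skin. Its relative change turned sign without skin replicate 4 (−0.07), the skin library with the lowest Ccl3, Ccl4, Ccl6, Ccl8 and Ccl9.

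Other chemokine genes were looked at for context, from a list of 16 other CC ligands of which 5 were measured in the tissues. Ccl2 and Ccl7, which attract monocytes and share the Ccl8 region, were high in skin alone. Ccl2 had 137, 231 and 82.4 TPM in skin, at most 13.5 TPM in small intestine, and is listed at 0 in every library of bone marrow, blood, spleen and lung. Ccl7 had 128, 90.4 and 116 TPM in skin and at most 15.7 TPM in small intestine. No library of any other tissue reached the skin range of either gene or of Ccl8. The share of all genes for which this holds was not counted, and Ccl8 had passed the filter on low values through skin. Ccl5, Ccl25 and Ccl27a were low, with group means of at most 28.5, 15.0 and 11.4 TPM. In lung against skin, 3 of the 5 were lower in lung and 0 higher, where 34.5% of all genes were lower and 8.03% higher.

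Macrophage markers also moved with the skin libraries. Of a list of 14 such genes, 6 were measured, and all 6 were lower in lung than in skin, as were 34.5% of all genes. Folr2 is counted among the 6 but had passed the filter on low values through its skin libraries, so its direction was set in advance. Their summed level was 285 to 606 TPM in skin, 222 to 495 in small intestine, 177 to 249 in colon, 106 to 262 in spleen, 71.4 to 90.7 in bone marrow, 65.5 to 100 in blood and 44.5 to 73.2 in lung. Folr2, a marker of tissue-resident macrophages, had 8.88, 24.4 and 6.76 TPM in skin and is listed at 0 in every library of blood, spleen, lung and small intestine. The complement gene C1qb had 40.8, 48.8 and 7.53 TPM in skin and 37.4, 45.6, 19.8 and 4.12 TPM in small intestine, where Ccl8 is listed at 0. Skin replicate 4 was the only one of the 3 skin libraries with the mast cell and basophil receptor gene Fcer1a above 0 (10.6 TPM). Of a list of 10 mast cell and basophil genes 7 were measured. Between lung and skin 0 of them were called, where 42.5% of all genes were, and Mcpt8 is listed at 0 in every skin library. The part of macrophages, mast cells and basophils in the skin levels of Ccl8, Ccl2, Ccl7 and Ccl9 was not tested.

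**Figure D4:**
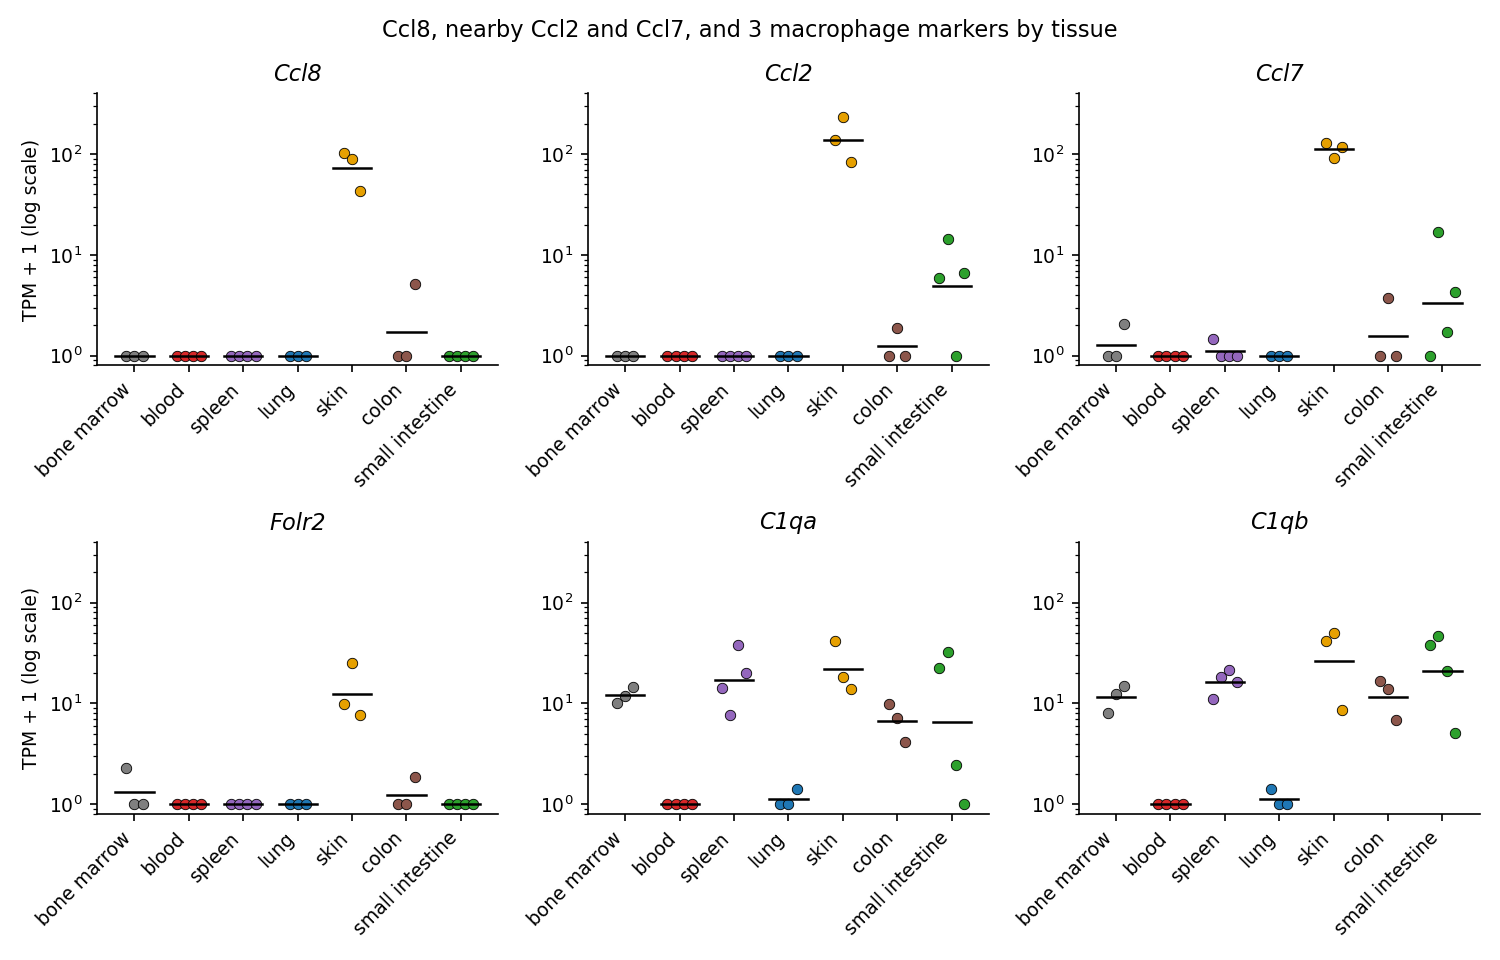
TPM + 1 on a log axis of Ccl8, Ccl2, Ccl7 and the macrophage markers Folr2, C1qa and C1qb in each tissue library; points are libraries and lines are means of log2(TPM + 1). Each gene has its highest mean in skin, but C1qa and C1qb overlap other tissues there, and C1qb also reaches 45.6 TPM in small intestine.

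Receptors of these ligands were measured in part, with 4 of a list of 15. Ccr1, a receptor of Ccl3, Ccl6 and Ccl9, had means of 224 TPM in lung, 549.9 in skin, 480 in colon and 561 in small intestine, against 31.5 to 47.4 in blood, bone marrow and spleen. It rose by 3.55 in the comparison of these 4 tissues with the other 3 (limma adjusted p = 1.34e-17). Ccrl2, which binds the protein chemerin and does not signal as a typical chemokine receptor, rose by 6.26 (adjusted p = 1.51e-21). Ccr3, the eotaxin receptor, was lower by −0.24 (adjusted p = 0.000247), and Ccr1l1 was not called (0.55, adjusted p = 0.325). From a list of 7 regulators of transcript decay, 4 were higher and 2 lower in that comparison, where 22.4% of all genes were higher and 31.1% lower. Zc3h12a, a nuclease that degrades inflammatory transcripts, rose by 3.28 (adjusted p = 1.39e-12).

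Likeness of pattern was measured by Pearson's r over the 7 tissue means of log2(TPM + 1), as a description without a test, and the points share their libraries. Ccl3 and Ccl4 had r = 0.98, Ccl8 and Ccl9 r = 0.86 and Ccl6 and Ccl9 r = 0.57, and the other pairs lay between −0.24 and 0.29. Among 7369 genes, those most like Ccl3 were Ralgds, Nabp1, Grtp1, Ninj1 and Gm45716 (r of 0.997 to 0.986). Those most like Ccl4 were Tbc1d10a, Arih2, Atp6v0d1, Cd274 and Egr3 (0.991 to 0.987). For Ccl6 they were Rap1gap2, Itgb7, Il4, Tsga10 and Atxn1 (0.973 to 0.947), and for Ccl9 Capn2, Pid1, Vmn2r26, St3gal4 and Rnh1 (0.988 to 0.978). For Ccl8 they were Acta1, Slc6a4, Folr2, Pfn1 and Myl1 (0.995 to 0.986), of which Acta1 and Myl1 encode muscle proteins. Outside skin, Ccl8 had a mean above 0 only in colon. Its correlations, also that with Ccl9, therefore rest mainly on the skin value, and genes high in skin score high.

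In the sort of small intestine eosinophils, Nmur1 was read first as a check of the labels. It had 25.9 to 53.1 TPM in the 5 positive libraries and 0 to 15.6 TPM in the 6 negative ones, without overlap. Ccl3 and Ccl4 were higher and Ccl6 and Ccl9 lower in the positive cells. All 4 members were called, where 14.4% of all genes were called, 9.18% as higher and 5.25% as lower.

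Ccl4 had 7170, 9841, 9587, 11577 and 11974 TPM in the positive libraries. In the negative libraries it had 5668, 5467, 5693, 5274, 4702 and 4647 TPM. The groups did not overlap, and the change was 0.70 ± 0.13 (SE, limma adjusted p = 0.000124). Ccl3 had 7293, 8397, 10234, 9494 and 13237 TPM in the positive libraries and 6574, 6574, 6534, 4570, 5247 and 5175 TPM in the negative ones. Its groups did not overlap either, and its change was 0.52 ± 0.15 (adjusted p = 0.00255).

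Ccl6 went the other way, with 3267, 1964, 2013, 1949 and 3112 TPM in the positive libraries and 3769, 3253, 4025, 3669, 4375 and 5416 TPM in the negative ones. It was lower by a change of −0.97 ± 0.16 (SE, limma adjusted p = 0.00466), and the only overlap was between positive replicate 1 and negative replicate 3. Ccl9 was low in both groups, with 4.01, 0.87, 12.7, 11.5 and 4.51 TPM against 15.8, 34.4, 21.8, 14.5, 18.5 and 26.4 TPM. Its change was −2.05 ± 0.43 (adjusted p = 0.00919), without overlap. Of all genes, 9.36% had groups that did not overlap, as had Ccl3, Ccl4 and Ccl9.

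Ccl3 and Ccl4 made up 88.6% ± 4.05 (SD, n = 5) of the members' summed TPM in positive and 72.8% ± 5.19 (SD, n = 6) in negative libraries. The ratio of Ccl4 to Ccl3 was 0.905 to 1.22 in positive and 0.832 to 1.15 in negative libraries, which overlapped. In both groups some libraries had more Ccl3 than Ccl4 and others more Ccl4, unlike the small intestine libraries of the tissue comparison. Among the receptors, Ccr1 rose by 0.45 (limma adjusted p = 0.0119), and Ccr3 was not called (−0.45, adjusted p = 0.389). Zc3h12a was lower in the positive cells (−2.54, adjusted p = 7.93e-05), with 5.80 to 19.8 TPM in positive and at least 41.1 TPM in negative libraries. Of the dissociation-response genes 5 of 16 were higher and 2 lower, where 9.18% of all genes were higher and 5.25% lower, with summed levels of 7124 to 20591 TPM in positive and 4721 to 13567 TPM in negative libraries. Of the macrophage markers 5 of 14 were measured, 3 were higher and 0 lower, and their sums were 269 to 465 TPM in positive and 138 to 266 TPM in negative libraries. The part of either list in the members' changes was not tested.

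**Figure D5:**
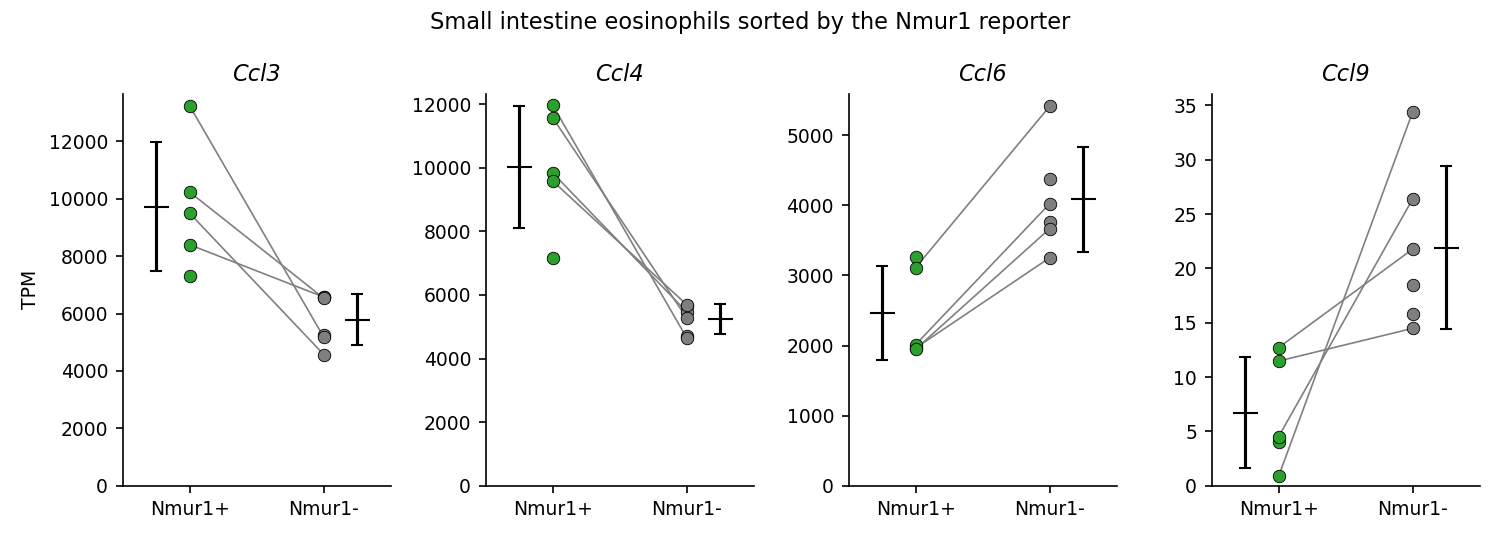
TPM of the 4 members in Nmur1 reporter-positive (5) and reporter-negative (6) libraries of small intestine eosinophils; points are libraries, lines join libraries with the same replicate number, and bars are the mean and SD. In all 4 joined pairs Ccl3 and Ccl4 are higher and Ccl6 and Ccl9 lower in the positive library; Ccl4 has means of 10030 and 5242 TPM.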

How the data were processed

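Eosinophils were profiled by Smart-seq2, a full-length cDNA method, in 24 tissue and 11 sorted libraries. The authors deposited 2 tables of TPM. Build mm10 and the tools RSEM 1.3.3, STAR 2.7.5c and cutadapt 2.10 are named, per the submitters' processing notes. How genes were filtered by the authors, and with which annotation, is not given in the sources used here, and depth is unknown. Columns of the deposited TPM values summed to 796048 to 890768 in the tissue and 799585 to 863816 in the sorted table. The tables were analysed apart, and no level was compared across them.

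Genes with at least 1 TPM in at least 3 tissue (9806 genes) or 5 sorted libraries (7982 genes) were tested on the log2 scale, log2(TPM + 1), two-sided, by lmFit and eBayes (trend) of limma 3.58.1, run in R 4.3.3. Groups were the only term, and Benjamini-Hochberg adjustment ran over all genes tested. The log scale understates changes of low genes. The fit was tested on simulated data. The members, gene lists and comparisons were chosen with earlier results of these data known. Named genes were the members, the measured other CC ligands and receptors, up to 4 called genes of the decay and dissociation lists, the highest markers, and the 5 genes most alike to each member. Only some of these are printed, and that choice, with Cd68, Fcer1a and C1qb, was made after their values were seen. Replicate numbers paired the sorted libraries (correlations of 0.164 to 0.225, all 4 pairs over 0.1) but not the tissue libraries (0 of 62 pairs over 0.1). Marker lists also covered monocytes, mast cells, T, B and dendritic cells and epithelium. Coordinates came from GENCODE M21 and promoters from RefSeq. Alternatives changed the pseudocount, filter, scaling, libraries and block. Figures were drawn with matplotlib 3.10.9 in Python 3.11.15.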

Additional observations from a re-analysis of the deposited data

How the results depend on the processing

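The counts of members called and of tissue pairs called stayed within 1.5 times their reported value under every alternative run. With so few members this limit lets a call be gained or lost, so it says little. Among changes of single members, 7 gained a call and 1 lost it without turning sign, and 5 turned sign. The lost call was that of Ccl9 in the gut tissues against lung and skin, without the skin libraries. When single libraries were left out, lung against skin gave 2 to 3 calls, and pairs called were 16 to 17 for Ccl3, 16 to 19 for Ccl4 and 13 to 15 for Ccl6. Relative changes that turned sign belonged to 2 uncalled results. Ccl6 in lung, skin, colon and small intestine against bone marrow, blood and spleen was −0.058 with pseudocount 10, −0.010 after quantile normalization and −0.69 without the bone marrow libraries. The last alternative was added after the data were seen, as was leaving out skin. Without skin, Ccl6 passed the limma test (adjusted p = 0.0410) as lower before the shift to the median gene, while its relative change was 0.026. Ccl3 in lung against skin was −0.19 after quantile normalization and, when single libraries were left out, between −0.067 (without skin replicate 4) and 0.77, and the cause was not tested. Ccl4 in lung against skin passed the threshold under 6 alternatives, with adjusted p of 0.000857 to 0.0493. With a replicate block, which paired the sorted libraries, all 4 members were again called (adjusted p of 0.000785 for Ccl3, 3.22e-05 for Ccl4, 2.50e-05 for Ccl6 and 0.0330 for Ccl9), and the block changed no call of a member in the tissues, where numbers are only shared. TPM keeps no depth, so the precision of low values, such as Ccl9 in the sort, is unknown.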

Other observations

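Of the genes within 200 kb of a member, 6 that are no chemokine genes were measured in the tissues. Ap2b1, Heatr6 and Taf15 had their highest tissue mean in skin, at 36.7, 16.7 and 10.6 TPM, and their lowest at 10.9 TPM in bone marrow, 3.27 TPM in lung and 4.79 TPM in small intestine. Wfdc21, 1700020L24Rik and Mmp28 had theirs in bone marrow, at 821, 49.4 and 1.60 TPM, with means of at most 40.2, 4.85 and 0.263 TPM elsewhere.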
